A study of Rattus norvegicus with 8 samples.

Results

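Histone genes were examined in perfused rat liver, for linker histone H1 and the core histones H2A, H2B, H3 and H4. Livers of male Wistar rats aged 6 to 10 weeks had been perfused with normoosmotic buffer of 305 mosm/L (4 arrays) or hypoosmotic buffer of 225 mosm/L (4 arrays), and all 8 samples carry the time point t120, read here as 120 min because the study gives perfusion times in minutes. Wistar is an outbred strain, the buffer is named as Krebs-Henseleit buffer, and no other treatment or allele is named for either group. It is not stated whether each array stands for a different rat. The p-values therefore refer to the scatter among these arrays, and that scatter may be technical. Members were all probe sets with 1 gene symbol of a histone name pattern, which gave 36 probe sets of 28 genes, out of 27596 probe sets and 14506 named genes on the array. By histone type these were 6 probe sets for H1, 12 for H2A, 7 for H2B, 9 for H3 and 2 for H4. The family was proposed with the rise of H1f4 already known, so the values of H1f4 are given as a description with no test, and H1f4 is left out of every count of called members.

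Core histones form the octamer around which DNA is wrapped, and H1 binds the DNA between nucleosomes. Replication-dependent histone genes lie in clusters, have no introns and are transcribed mainly in S phase, and their mRNAs end in a stem-loop in place of a poly(A) tail. Variant genes such as H3f3a, H3f3b, H2az1 and H2az2 are also transcribed outside S phase, into spliced, polyadenylated mRNAs, and others are restricted to testis or oocyte. Most hepatocytes of an adult liver are not dividing. How the cDNA was primed, which decides how well tailless mRNAs are seen, is not given in the sources used here.

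Of the 28 genes, 14 lie on chromosome 17, 5 on chromosome 2, 5 on chromosome 10 and 1 each on chromosomes 4, 7, 13 and 14 in RefSeq. H1f4 and Hist1h2bq are next to each other in the order of protein-coding genes on chromosome 17, with the testis gene H1f6 on the other side of Hist1h2bq. Promoters are shown for H1f4 and the genes with a called probe set, and for H3f3a, which encodes the same protein as H3f3b. All but H3f3a were picked by their change, and shared regulation was not tested. Each sequence is the 250 bases before the RefSeq start site on the GRCr8 build, 5′ to 3′ on the strand of the gene. Capitals mark, on either strand, the CCAAT box, the letters TATAAA of a TATA box, the octamer ATTTGCAT known from H2B promoters and the letters AAACACA known as the H1 box.
H1f4, chr17:41914175-41914424, plus strand: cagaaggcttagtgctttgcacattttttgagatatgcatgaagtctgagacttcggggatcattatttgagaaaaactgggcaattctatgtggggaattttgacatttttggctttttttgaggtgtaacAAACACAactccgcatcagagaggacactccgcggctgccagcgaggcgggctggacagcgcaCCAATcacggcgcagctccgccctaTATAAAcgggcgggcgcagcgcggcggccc
Hist1h2bq, chr17:41869342-41869591, minus strand: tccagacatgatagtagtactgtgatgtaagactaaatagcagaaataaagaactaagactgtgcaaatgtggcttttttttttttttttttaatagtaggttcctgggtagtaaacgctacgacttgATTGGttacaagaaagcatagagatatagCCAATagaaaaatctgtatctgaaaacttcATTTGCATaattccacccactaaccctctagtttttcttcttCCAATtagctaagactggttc
Hist1h2ail1, chr17:41997129-41997378, minus strand: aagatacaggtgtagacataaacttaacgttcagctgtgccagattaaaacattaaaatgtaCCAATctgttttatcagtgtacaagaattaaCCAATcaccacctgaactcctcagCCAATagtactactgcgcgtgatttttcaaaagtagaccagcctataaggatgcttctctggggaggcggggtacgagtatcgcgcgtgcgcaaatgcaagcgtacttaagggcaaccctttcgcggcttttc
Hist1h4b, chr17:47175996-47176245, plus strand: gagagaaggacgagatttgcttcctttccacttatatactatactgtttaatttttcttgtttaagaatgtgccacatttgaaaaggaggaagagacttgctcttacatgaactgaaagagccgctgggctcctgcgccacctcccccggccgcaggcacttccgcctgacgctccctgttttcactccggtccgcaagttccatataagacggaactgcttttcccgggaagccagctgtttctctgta
H3f3b, chr10:101757637-101757886, minus strand: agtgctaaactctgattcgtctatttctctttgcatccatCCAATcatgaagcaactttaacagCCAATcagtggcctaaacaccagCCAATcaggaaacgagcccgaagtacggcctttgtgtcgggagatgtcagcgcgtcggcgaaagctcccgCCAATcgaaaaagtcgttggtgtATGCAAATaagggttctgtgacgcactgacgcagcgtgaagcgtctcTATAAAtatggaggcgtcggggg
H3f3a, chr13:95076696-95076945, minus strand: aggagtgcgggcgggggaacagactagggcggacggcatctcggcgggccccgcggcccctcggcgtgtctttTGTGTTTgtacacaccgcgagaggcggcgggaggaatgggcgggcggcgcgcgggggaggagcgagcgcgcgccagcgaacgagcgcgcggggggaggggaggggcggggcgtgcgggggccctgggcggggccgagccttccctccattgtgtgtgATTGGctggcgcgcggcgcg

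The H1f4 window holds the H1 box at −118, a CCAAT box at −55 and TATAAA at −30, counted from −1 for the base before the start. The windows of the H3.3 genes differ. That of H3f3b holds 4 CCAAT boxes, at −210, −186, −163 and −93, the octamer on the opposite strand at −70 and TATAAA at −23, whereas that of H3f3a holds 1 CCAAT box and 1 H1 box letter match, both on the opposite strand. The Hist1h2bq window holds 3 CCAAT boxes and the octamer, the Hist1h2ail1 window 3 CCAAT boxes, and the Hist1h4b window none of the 4 motifs. Over the 27 histone genes with a promoter entry, CCAAT was found in 25 (92.6%), TATAAA in 12 (44.4%), ATTTGCAT in 10 (37.0%) and AAACACA in 7 (25.9%). Among all 33469 promoters of the same length the shares were 34.0%, 12.9%, 1.56% and 6.08%. The octamer was present in 5 of 7 H2B, 4 of 9 H2A, 1 of 4 H3 and 0 of 6 H1 promoters, and the H1 box in 4 of 6 H1 promoters. A match is a description of letters. The windows of H2ac25 and H2bu1 share 217 bases and those of H2ac1 and H2bc1 share 239 bases, so the 27 windows are not all separate sequences.

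Hypoosmotic livers had higher values of a small set of histone probe sets. Beside H1f4, which has no test, these were the probe sets of Hist1h2bq, Hist1h4b and the variant gene H3f3b. Of the 2 probe sets of Hist1h2ail1, 1 was among them. Of the other 5 H1 probe sets, 0 were called. With 1.26% called over the whole array, this count does not set H1f4 apart from them. Among them, H1f5 had a log2 change of 0.71 with its groups apart (limma, adjusted p = 0.149). The rest had changes between −0.14 for H1f6 and 0.11 for H1f1. Clustered histone genes are known as close copies of each other, and which copies a probe set reads was not tested, so the values of Hist1h2bq, Hist1h4b, Hist1h2ail1 and the other clustered members belong to the probe sets and not firmly to single genes. Each called probe set had its 4 hypoosmotic values above its 4 normoosmotic ones. The calls rest on these same values, so this separation describes them and adds no support. The share of all probe sets whose groups lay apart is not given here. Of the 35 probe sets other than H1f4, 4 were called higher and 0 lower at an adjusted p under 0.05 (limma over all 27596 probe sets), which is 11.4%. Over the whole array 1.26% were called, 0.37% higher and 0.895% lower. The members were chosen with earlier results of these data known, and close copies can share signal. The 11.4% is therefore a description and no test of the family. All values are log2 expression values per probe set, changes are hypoosmotic minus normoosmotic, and levels of different probe sets are not compared. In whole liver, a changed number of cells of a type and a changed amount of RNA per cell cannot be told apart.

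**Figure D1:**
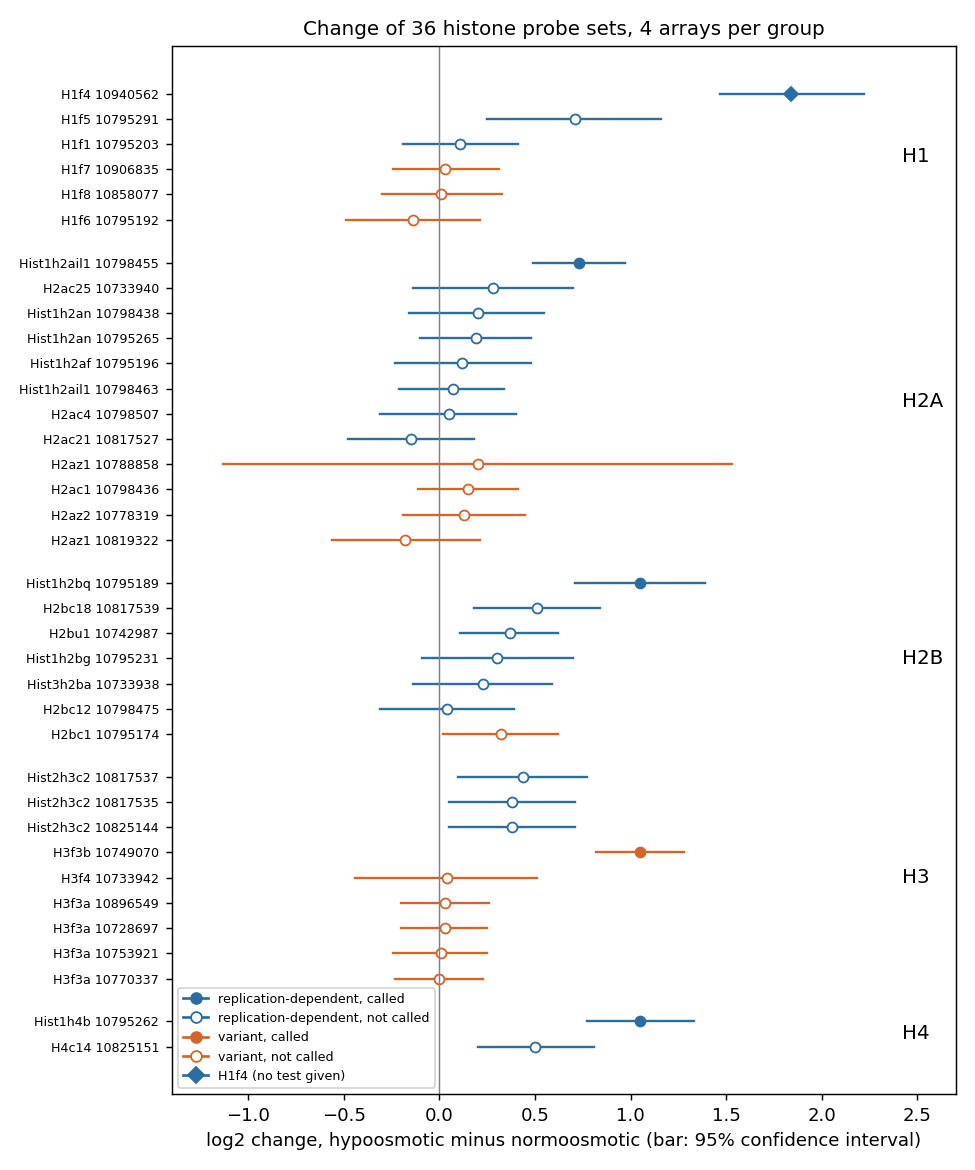
Log2 change (hypoosmotic minus normoosmotic, x axis) of the 36 histone probe sets, grouped by histone type, with 95% confidence intervals as bars. Blue is replication-dependent, orange is variant, filled circles passed the test and the diamond is H1f4, which has no test; H1f4 lies at 1.84, the 4 filled circles lie between 0.73 and 1.05, and most others lie close to 0 or slightly above it.

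Among linker histones, H1f4 (probe set 10940562), which encodes H1.4, read 7.25, 7.67, 7.34 and 8.10 in normoosmotic replicates 1 to 4 and 9.47, 9.25, 9.40 and 9.61 in the hypoosmotic ones. The lowest hypoosmotic value, 9.25, lay above the highest normoosmotic one, 8.10, so the groups did not overlap. The log2 change was 1.84 ± 0.17 (SE). It lay between 1.73 and 2.01 over 16 alternative settings.

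H1f5 (probe set 10795291), which encodes H1.5 and carries the same 3 motif types in its promoter window as H1f4, read 3.23, 4.12, 4.39 and 4.25 in normoosmotic samples and 4.78, 4.79, 4.49 and 4.75 in hypoosmotic ones. All 4 hypoosmotic values were above the normoosmotic ones, and normoosmotic replicate 1 was the lowest of all. The log2 change of 0.71 (95% interval 0.25 to 1.16) did not pass the test over all probe sets (limma, adjusted p = 0.149), and it was 0.45 without normoosmotic replicate 1 (limma, adjusted p = 0.193). H1f1, the gene of H1.1, had a log2 change of 0.11 (−0.19 to 0.41).

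The germline linker histones gave no change that passed the test. H1f6, the testis H1t gene and neighbour of Hist1h2bq, had means of 3.10 ± 0.21 and 2.96 ± 0.31 (SD, n = 4 each) and a log2 change of −0.14 (95% interval −0.49 to 0.21). H1f7, also of testis, had means of 4.53 and 4.56 and a change of 0.03, and H1f8, of the oocyte, had means of 2.74 and 2.75 and a change of 0.01. Over all 6 testis or oocyte members, H2ac1, H2bc1 and H3f4 included, 0 were called by limma and 1, H2bc1, had an unadjusted p under 0.05 (adjusted p = 0.366).

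**Figure D2:**
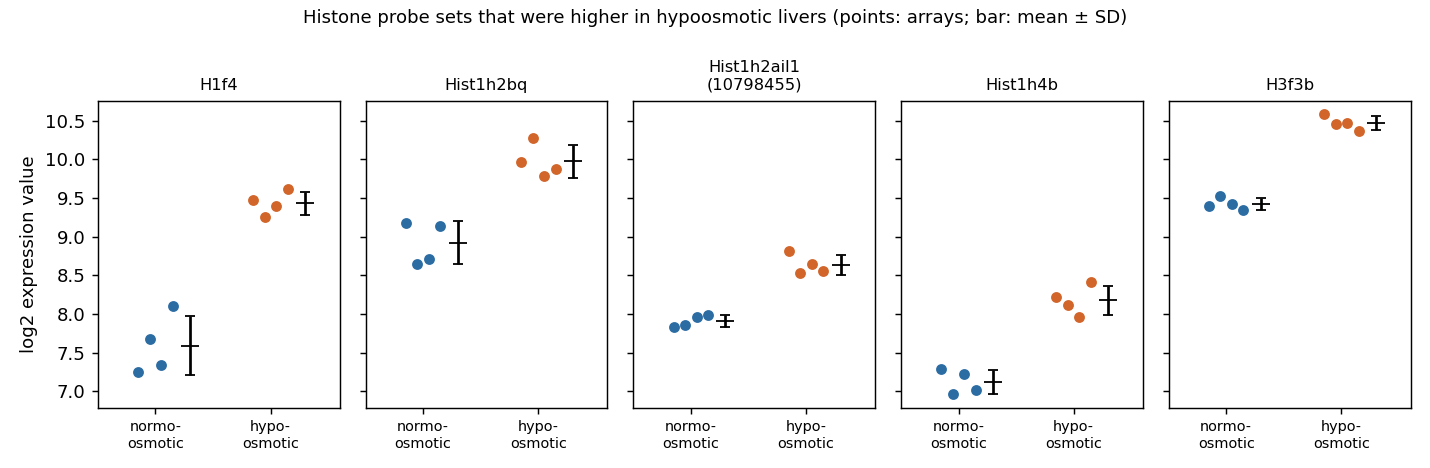
Log2 expression value (y axis) of 5 histone probe sets in each of the 4 normoosmotic (blue) and 4 hypoosmotic (orange) arrays, with the mean and SD of each group in black. In every panel the hypoosmotic points lie above the normoosmotic ones; the step is 1.84 for H1f4, 1.05 for Hist1h2bq, Hist1h4b and H3f3b, and 0.73 for the Hist1h2ail1 probe set shown.

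Of the H2B genes, Hist1h2bq (probe set 10795189) read 9.18, 8.65, 8.71 and 9.14 in normoosmotic samples and 9.96, 10.28, 9.78 and 9.87 in hypoosmotic ones. The hypoosmotic values were all higher, and within the normoosmotic group replicates 1 and 4 were higher than replicates 2 and 3. This probe set rose by 1.05 ± 0.16 (SE), or 2.07-fold with a 95% interval of 1.64 to 2.62, with an adjusted p of 0.00794 by limma. The other 6 H2B probe sets had changes between 0.04 for H2bc12 and 0.51 for H2bc18, of which 0 were called and 3 had an unadjusted p under 0.05. H2bc18 read 4.81 to 5.42 in normoosmotic and 5.40 to 5.91 in hypoosmotic samples, with a narrow overlap (limma, adjusted p = 0.142). H2bu1 was dim, at 2.25 to 2.47 against 2.54 to 2.92 (limma, adjusted p = 0.181).

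A further 3 probe sets carry several H2B symbols each and are therefore no members and not named here. Their normoosmotic means were 8.20 ± 0.15, 7.44 ± 0.13 and 7.78 ± 0.10 and their hypoosmotic means 8.76 ± 0.11, 7.92 ± 0.06 and 8.30 ± 0.10 (SD, n = 4 each). The groups did not overlap in any of the 3, which describes the same values as the test. The log2 changes were 0.56, 0.48 and 0.53, with adjusted p-values of 0.0366, 0.0558 and 0.0374 by limma. They share symbols among themselves, so they are not separate measurements of 3 genes.

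Of the H4 genes, Hist1h4b (probe set 10795262) read 7.29, 6.97, 7.22 and 7.01 in normoosmotic samples and 8.22, 8.11, 7.96 and 8.41 in hypoosmotic ones. The gap between the groups was wider than the range within either. It rose by 1.05 ± 0.13 (SE), or 2.07-fold with a 95% interval of 1.71 to 2.52, with an adjusted p of 0.00354 by limma. H4c14 (probe set 10825151) read 8.02, 8.16, 8.52 and 8.43 against 9.03, 8.64, 8.66 and 8.81. Its groups were apart as well, but its change of 0.50 (0.20 to 0.81) did not pass (limma, adjusted p = 0.116). The change of Hist1h4b exceeded that of H4c14 by 0.55, and by 0.46 to 0.69 when 1 array was left out. This difference, like those given for H3f3b and Hist1h2ail1, was picked after the values were seen and is a description with no test.

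Of the H3.3 genes, H3f3b was called higher and H3f3a was not called. H3f3b and H3f3a encode the same H3.3 protein, which is placed into chromatin also outside S phase. H3f3b (probe set 10749070) read 9.39, 9.53, 9.42 and 9.34 in normoosmotic samples and 10.58, 10.46, 10.47 and 10.37 in hypoosmotic ones. Both groups were tight, with SDs of 0.08 and 0.09, and lay about 1 log2 unit apart. H3f3b rose by 1.05 ± 0.11 (SE), or 2.07-fold with a 95% interval of 1.77 to 2.43, with an adjusted p of 0.00203 by limma. The 4 probe sets of H3f3a had changes of 0.03, 0.01, 0.00 and 0.03, and their 95% intervals all lay within −0.24 to 0.26. After subtraction of array medians these changes were −0.04 to −0.01, and that of H3f3b was 1.01.

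The value of H3f3b minus the mean of the H3f3a probe sets was 0.82, 0.71, 0.61 and 0.56 in normoosmotic samples and 1.81, 1.62, 1.78 and 1.63 in hypoosmotic ones. It was 1.04 log2 units larger in the hypoosmotic group, and the groups did not overlap. The 4 H3f3a probe sets share an accession and stayed within 0.26 of each other in every array, so they count as 1 gene read several times.

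**Figure D3:**
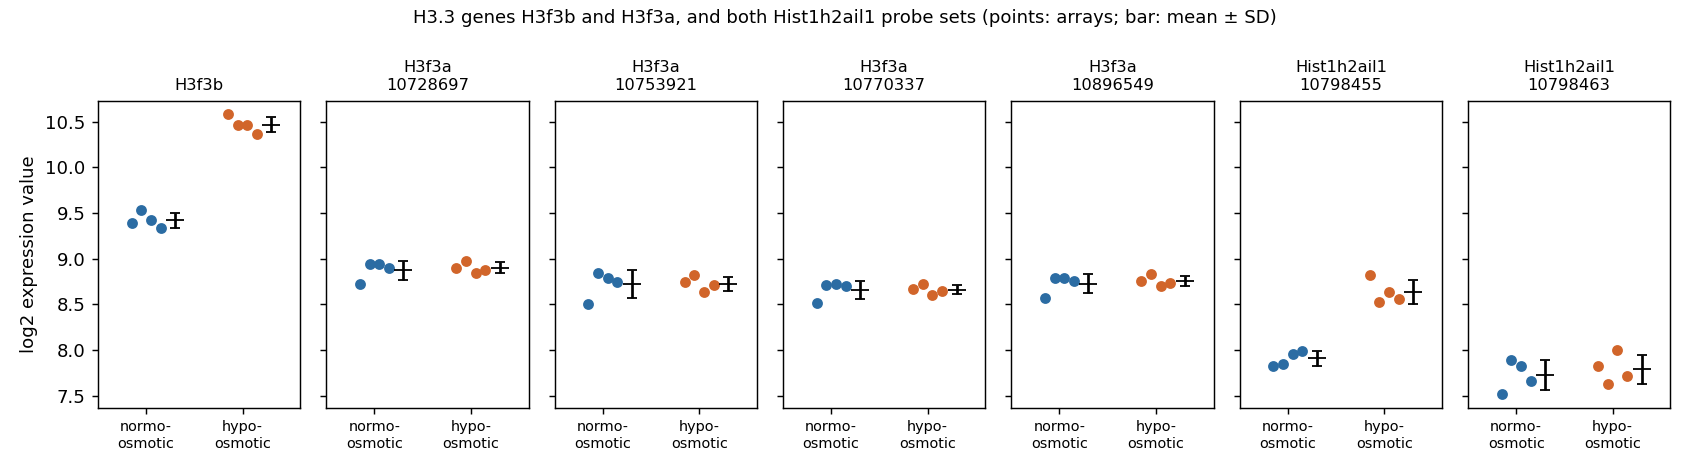
Log2 expression value (y axis) of H3f3b, the 4 probe sets of H3f3a and both probe sets of Hist1h2ail1 in normoosmotic (blue) and hypoosmotic (orange) arrays, 4 each, with group mean and SD in black. H3f3b steps up by 1.05 while the H3f3a probe sets stay level, between 0.00 and 0.03; of the Hist1h2ail1 probe sets, 10798455 steps up by 0.73 and 10798463 by 0.07.

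The replication-dependent H3 gene Hist2h3c2 had 3 probe sets, with changes of 0.44 for probe set 10817537 and 0.38 for each of the others. Of these, 2 hold identical values in all 8 arrays and so are 1 measurement listed under 2 identifiers. Probe set 10817537 read 8.25 to 8.72 in normoosmotic and 8.52 to 9.20 in hypoosmotic samples, and the groups overlapped (limma, adjusted p = 0.24). The testis H3 gene H3f4 had a change of 0.04 (95% interval −0.44 to 0.51).

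Of the H2A genes, Hist1h2ail1 was read by 2 probe sets with the same accession, of which 1 was called. Probe set 10798455 read 7.83, 7.85, 7.96 and 7.99 in normoosmotic samples and 8.82, 8.53, 8.64 and 8.56 in hypoosmotic ones, and it rose by 0.73 ± 0.11 (SE; limma, adjusted p = 0.00878). Probe set 10798463 read 7.52, 7.89, 7.83 and 7.66 against 7.82, 7.63, 8.0 and 7.71. Its groups overlapped almost fully, and its change was 0.07 (95% interval −0.21 to 0.34). The changes of the 2 lay 0.67 apart.

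The remaining replication-dependent H2A probe sets, of Hist1h2an, Hist1h2af, H2ac4, H2ac21 and H2ac25, had changes between −0.15 for H2ac21 and 0.28 for H2ac25, of which 0 were called by limma and 0 had an unadjusted p under 0.05. Both probe sets of Hist1h2an moved alike, with changes of 0.19 and 0.20. H2ac25 was dim in both groups, with means of 2.81 and 3.09.

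The H2A.Z genes, whose variant marks promoters, gave no change that passed the test. H2az2 read 6.83 to 7.07 in normoosmotic and 6.76 to 7.42 in hypoosmotic samples, a change of 0.13 (95% interval −0.19 to 0.45). H2az1 was read by 2 probe sets. Probe set 10819322 lay between 8.05 and 8.85 in normoosmotic and 7.81 and 8.44 in hypoosmotic samples, a change of −0.18 (−0.56 to 0.21).

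The other H2az1 probe set, 10788858, split the arrays without regard to group. It read 9.06, 6.71, 6.61 and 6.71 in normoosmotic samples and 6.66, 8.53, 6.10 and 8.60 in hypoosmotic ones. Normoosmotic replicate 1 and hypoosmotic replicates 2 and 4 stood at 8.53 or above, and the other 5 arrays at 6.71 or below. Its SDs of 1.19 and 1.28 were the largest of all histone probe sets, against median SDs of 0.21 in both groups, and its change of 0.20 has a 95% interval of −1.13 to 1.53. The 2 H2az1 probe sets read alike in the 3 high arrays, at 9.06 and 8.85, 8.53 and 8.35, and 8.60 and 8.44. In each of the other 5 arrays probe set 10788858 was well below 10819322, which read 7.81 or above there. The gap was widest, at 1.71, in hypoosmotic replicate 3. What separates these arrays was not tested.

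**Figure D4:**
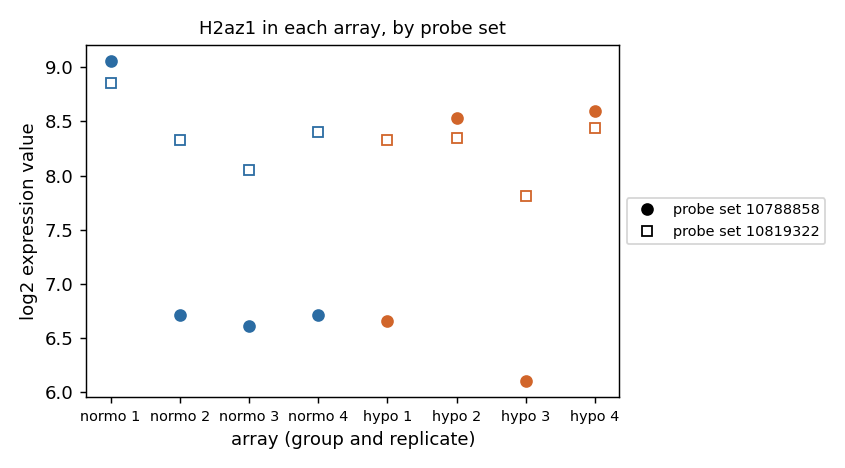
Log2 expression value (y axis) of both H2az1 probe sets in each array (x axis; blue normoosmotic, orange hypoosmotic; filled circles probe set 10788858, open squares probe set 10819322). The circles stand at 8.53 or above in 3 arrays, from both groups, and at 6.71 or below in the other 5, while the squares stay between 7.81 and 8.85.

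Taken by class and without H1f4, the 21 replication-dependent probe sets had a median change of 0.30, with 3 called higher and 0 lower, and 20 of them had a change above 0. The 14 variant probe sets had a median of 0.03, with 1 called higher and 0 lower. Of these, 2 had a change below 0, and H3f3a probe set 10770337 had equal group means. The median over all probe sets was 0.03, and 15898 of all 27596 were counted as above 0. In that count, probe sets with equal group means can fall on either side. The median of the variant probe sets turned to −0.01 when array medians were subtracted, and that of the replication-dependent ones was 0.26. With 2 identical Hist2h3c2 probe sets and several genes read more than once, these counts are not counts of separate genes. The unadjusted p was under 0.05 for 10 of the 21 and for 2 of the 14, and for 3415 of all 27596 probe sets.

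Genes that act on histones or mark S phase were taken from lists chosen for their known roles. Over the whole array, limma called 1.26% of probe sets, and 3415 of 27596 had an unadjusted p under 0.05. The counts for every list below stand beside these shares. With so few genes per list, they are no result about a list. Among histone chaperones, which escort free histones, 1 of 18 measured genes was called lower and 0 higher by limma, with a median change of −0.09, and 3 had an unadjusted p under 0.05. This was Nasp, a chaperone of H1 and of H3 with H4. It read 5.49, 4.70, 5.04 and 4.86 in normoosmotic samples and 4.11, 4.20, 4.29 and 4.29 in hypoosmotic ones. It fell by 0.80 ± 0.16 (SE; limma, adjusted p = 0.0291), and all hypoosmotic values lay below the normoosmotic ones. The call was lost in 6 of 16 alternatives, without normoosmotic replicate 1 or 3 or hypoosmotic replicate 1, 2 or 3 and with the replicate number as a block, with adjusted p-values up to 0.0993. Npm1, a nucleolar histone chaperone with 4 probe sets, had changes between −0.54 and −0.41 and adjusted p-values of 0.0791 to 0.103. The brightest of them was called without normoosmotic replicate 4 (limma, adjusted p = 0.0394).

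Of 11 measured genes for the 3′ end processing of histone mRNA and their transcription, 0 were called by limma and 2 had an unadjusted p under 0.05, with a median change of 0.07. Slbp, which binds the stem-loop, had a change of 0.10 (95% interval −0.23 to 0.43). Npat, a coactivator of clustered histone genes, had one of −0.23 (−0.54 to 0.08), and Cpsf3, the nuclease that cuts the pre-mRNA, 0.24 (−0.07 to 0.54). Nolc1 was on the list but is a nucleolar protein, and its part in these processes was not tested. Its change was −0.55 (limma, adjusted p = 0.132, and 0.0454 without hypoosmotic replicate 4).

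Of 25 measured genes of S phase and proliferation, 0 were called by limma and 2 had an unadjusted p under 0.05, with a median change of 0.08. The changes lay between −0.28 for Mcm7, a subunit of the replicative helicase, and 0.81 for Rrm2, the small subunit of ribonucleotide reductase. Rrm2 read 4.69, 4.85, 4.59 and 5.26 against 6.06, 5.44, 5.20 and 5.91, an overlap of a single pair of arrays (limma, adjusted p = 0.0756; 0.0499 with array weights and 0.0496 with the replicate number as a block). Its second probe set had a change of 0.74 and an adjusted p of 0.0787. Pcna, the sliding clamp of DNA polymerase, had a change of 0.18 (95% interval −0.06 to 0.43). Histone variants outside the name pattern, H2ax, Macroh2a1, Macroh2a2, Cenpa and H2ap, had changes between −0.16 and 0.10, and 0 of these 5 were called by limma or had an unadjusted p under 0.05.

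The array medians lay between 4.05 and 4.16. Precision is limited by how few arrays there are. The liver label was matched by its markers. The summed signal of 6 hepatocyte markers, given as log2, ranged from 14.96 to 14.99 in normoosmotic and from 14.88 to 15.04 in hypoosmotic samples. For 7 Kupffer cell markers it ranged from 9.30 to 9.84 and from 9.39 to 10.08, for 8 lymphocyte markers from 7.11 to 7.65 and from 7.21 to 7.94, for 5 neutrophil markers from 5.08 to 5.45 and from 5.07 to 5.41, and for 4 erythroid markers from 6.79 to 8.42 and from 6.59 to 7.66. For 3 endothelial and 5 stellate markers the ranges were 9.16 to 9.75 and 8.49 to 9.11 in normoosmotic samples, against 9.39 to 9.70 and 8.53 to 8.78 in hypoosmotic ones. The groups overlapped for all 7 lists, and 0 of the 38 markers were called by limma, while 4 had an unadjusted p under 0.05. Over the whole array 1.26% were called and 3415 of 27596 had such a p. The 4 were Hbb (change −0.85), Alas2 (−0.23), Reln (−0.46) and Cd3d (0.31). A sum mainly follows its brightest marker, Cd4 for lymphocytes and Hbb for erythroid cells. Overlapping sums therefore do not show that the cell make-up was alike. The part of the markers in the histone values was not tested.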

How the data were processed

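RNA from 8 samples of perfused liver was hybridised to 1-colour Affymetrix arrays, per the labels' protocols. The deposited values are on a log2 scale, cover 27596 probe sets and run from 0.88 to 13.26. The log2 scale was read from this range. Transcriptome Analysis Console 4.0 is named per the submitters' processing notes, while how probes were summarised and normalized is not given in the sources used here. No detection call was used, so low values can be background. Of the probe sets, 15310 had 1 gene symbol in the platform annotation, 323 several and 11963 none. Symbols were updated by gene ID with RefSeq (GRCr8), which matched 15279 of the 15310 and all 36 histone probe sets. No array positions are given, since no build is named.

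Values were fitted with limma 3.58.1 in R 4.3.3 (lmFit, eBayes, group as the only term, two-sided) on all probe sets, with Benjamini-Hochberg adjustment over all of them and calls under 0.05. For gene lists, the probe set with the highest mean stood for a gene. The fit was tested on simulated data, in 5 runs with 200 changed probe sets each. It called 19.8% of changes of 0.5 and 80.2% of changes of 1.0. A change near 0.5 that was not called is therefore no sign of absence.

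The members and lists were chosen with earlier results of these data known. Named are H1f4, all called histone probe sets, the brightest and most changed probe set of each type and class, other probe sets of those genes, and the called and most changed gene of each list. Further histone genes, Npm1, Slbp, Npat, Cpsf3, Pcna and the probe sets of several symbols were named after their values were seen. Alternatives were 2 normalizations, a filter on the dimmest 25%, array weights, a robust prior with a trend, a block for the replicate number, 2 smaller sets of features, an adjusted p of 0.1 and leaving out each array. Correlations between members are not given, because the arrays form 2 groups of 4. Promoter letters were searched on both strands.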

Additional observations from a re-analysis of the deposited data

Results flagged for a closer look

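In groups of 4 arrays, an array was singled out when its gap to the nearest other array was too large a share of the group's range by Dixon's test at the 95% level, which chance gives in about 1 of 20 groups. Of 80 combinations of probe set and group, 6 were singled out. H2az1 probe set 10788858 read 9.06 in normoosmotic replicate 1, against 6.61 to 6.71 in the others. H1f5 read 4.49 in hypoosmotic replicate 3, against 4.75 to 4.79, and H2ac25 read 3.24 in normoosmotic replicate 4, against 2.65 to 2.71. The H3f3a probe sets 10770337 and 10896549 read 8.51 and 8.57 in normoosmotic replicate 1, below 8.70 to 8.72 and 8.76 to 8.79, and are readings of 1 gene. Npm1 probe set 10741907 read 8.82 in normoosmotic replicate 4, against 9.31 to 9.37. The causes were not tested.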

How the results depend on the processing

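The count of 4 called histone probe sets other than H1f4 was 4 under all 17 alternatives, the 8 that leave out an array included. Hist1h2bq, Hist1h4b, H3f3b and Hist1h2ail1 probe set 10798455 each kept the call in all 16 alternative fits, where the highest adjusted p by limma was 0.0334, 0.0146, 0.0122 and 0.0375. The median change of the replication-dependent probe sets ranged from 0.23 to 0.42 without 1 array and from 0.26 to 0.37 otherwise, and that of the variant ones from 0.00 to 0.05 and from −0.01 to 0.04. The number of called chaperones, 1, was 0 in the fit with a replicate block. It ranged from 0 to 2 without 1 array, being 0 without normoosmotic replicate 1 or 3 or hypoosmotic replicate 1, 2 or 3 and 2 without normoosmotic replicate 4. The number of called genes on the list of 3′ end processing ranged from 0 to 1 without 1 array, being 1, Nolc1, without hypoosmotic replicate 4. That of S phase genes was 1 with array weights and 1 with a replicate block. Over all probe sets, 349 were called, against 251 with a replicate block, 707 at an adjusted p under 0.1 and 96 to 382 without 1 array. Without hypoosmotic replicate 2, 3 or 1 these were 96, 150 and 203, and without normoosmotic replicate 3, 1 or 4 they were 117, 122 and 228. The causes were not tested. Same-numbered arrays of the 2 groups had correlations of deviations from the group means of 0.03, 0.04, 0.11 and 0.22. For arrays of different numbers these ran from −0.26 to 0.14. The numbers were not taken as pairs, although these values do not settle whether they are. The block changed no histone call. Values near background, such as those of H2bu1 and H2ac25, limit what can be seen.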
